A study of Homo sapiens with 6 samples.

Results

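Transcript levels of the glycolysis and pentose phosphate genes were examined in the 76N line, which comes from normal human breast epithelium, transfected with an siRNA against Ecd or with a control siRNA. The members are a list of 35 genes, of which 25 take glucose from its uptake to lactate, 5 encode pyruvate dehydrogenase and its kinases, and 5 belong to the pentose phosphate pathway. For each, every probe set annotated with that symbol alone was taken. Of the 35, 33 had such a probe set, 82 probe sets in all out of 54675 on the array. The lactate transporter genes SLC16A1 and SLC16A3 had none and were not analysed here.

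The tested cultures received Ecd siRNA (n = 3 arrays) and their controls received control siRNA (n = 3 arrays), all grown in DFCI-1 medium, with 1 array for each culture and the replicates described as biological. All 6 cultures are of 1 cell line, and no time from transfection to harvest was given in the sources used here. Ecd is the product of ECD, a cell cycle regulator first named in Drosophila as ecdysoneless. The comparison asks which of these transcripts differ between the Ecd siRNA and the control siRNA cultures.

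Glycolysis splits glucose into pyruvate in the cytosol and yields ATP and NADH, and lactate dehydrogenase turns pyruvate into lactate when NADH must be reoxidised. The pace of the pathway is set mainly by glucose uptake, by hexokinase and by phosphofructokinase, which is switched on by a fructose bisphosphate signal that the PFKFB enzymes make and break down. The pentose phosphate pathway branches off after hexokinase, makes NADPH in its oxidative arm and ribose phosphate for nucleotides, and returns sugars to glycolysis through transketolase and transaldolase. Many steps have several isoform genes, some used in nearly all cells and others raised by hypoxia or kept to particular tissues such as brain and muscle. Cultured epithelial cells are known to make much lactate from glucose.

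Signals are MAS5 intensities on a linear scale, the value that the array software assigns to a probe set. Median signals were 134.6 to 146.7 on the Ecd siRNA arrays and 128.7 to 147.6 on the control siRNA arrays. The ratio of the 3′ to the 5′ GAPDH control probe set, a sign of RNA integrity, was 0.974 to 1.003 on the Ecd siRNA arrays and 0.974 to 0.980 on the control siRNA arrays. ECD itself, the siRNA target, had signals of 588.9, 599.8 and 542.5 in Ecd siRNA cultures, against 1076.6, 1011.4 and 1007.2 in control siRNA cultures, so 55.9% of the control level remained (log2 change -0.82, limma adjusted p = 0.000172). Of the 12 mammary epithelial markers examined, 9 had a probe set and all 9 lay above the filter on dim signals, led by the basal keratin gene KRT14 at 22350 ± 1273 in Ecd siRNA cultures and 21386 ± 1315 in control siRNA cultures (SD, n = 3 each). Their summed signal was 97357 to 107470 in Ecd siRNA cultures and 91061 to 98513 in control siRNA cultures, so the groups overlapped. Of these 9, the adhesion genes CDH1 (0.25), CDH3 (0.38) and ITGB4 (0.29) rose and the luminal keratin gene KRT18 (-0.52) fell on the log2 scale, and 5 did not pass, where 10.1% of all tested genes rose and 11.0% fell. Of 8 endothelial markers, 3 lay above the filter (PECAM1, TEK and CLDN5), and of 6 leukocyte markers with a probe set, 3 did (CSF1R, LYZ and ITGAM). None of these 6 passed, and CDH5, VWF and PTPRC lay under the filter. In bulk RNA, fewer cells of a type and less RNA in each cell cannot be told apart.

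Of the 33 tested members 7 rose and 4 fell, while 22 missed the threshold, a Benjamini-Hochberg adjusted p of 0.05 in limma over all 14603 tested genes. The rises were those of SLC2A1, PFKFB3, PFKFB4, ALDOC, TPI1, ENO2 and PDK2, and the falls those of LDHB, PDHA1, PGD and TKT. The 7 rises are 21.2% of the tested members, against 10.1% of all tested genes, and the 4 falls are 12.1%, against 11.0% of all tested genes. The share of falls was near that of the whole array. The median log2 change of the members was 0.099, against 0.008 for all tested genes, and 3 members changed by more than 1 on the log2 scale. Changes are differences of mean log2(signal + 16) between Ecd siRNA and control siRNA cultures, a scale that understates the change of dim transcripts. Signals did not overlap between the Ecd siRNA and control siRNA arrays in 19 of 33 members (57.6%), against 36.4% of all tested genes. The 22 members that did not pass had log2 changes of -0.65 to 0.28, and in 8 of them the groups did not overlap either. The share without overlap among all genes that did not pass was not computed. All 33 members with a probe set passed the filter, so none was lost to dim signal.

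**Figure D1:**
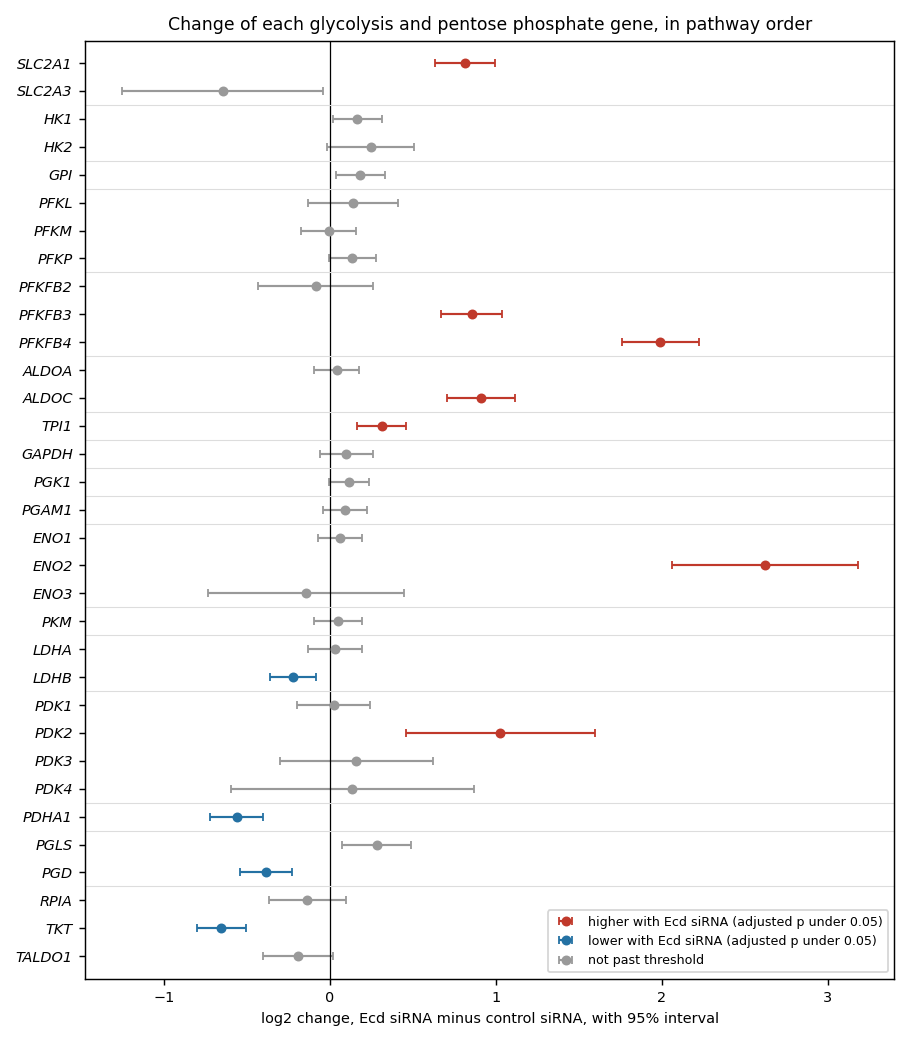
Log2 change of each of the 33 tested genes, Ecd siRNA minus control siRNA (x axis), in pathway order from glucose uptake at the top to the pentose phosphate genes at the bottom. Points are limma estimates with 95% intervals, in red and blue for the 7 rises and 4 falls past the threshold and in grey for the other 22. ENO2 (2.62) and PFKFB4 (1.99) lie farthest to the right, and TKT (-0.65) is the largest of the falls that passed.

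SLC2A1 encodes the glucose transporter GLUT1, which brings basal glucose into most cultured cells. Its signals were 8868.2, 7145.4 and 7602.2 in Ecd siRNA cultures, against 4359.5, 4523.9 and 4478.3 in control siRNA cultures. All Ecd siRNA arrays lay above all control arrays, with means of 7872 ± 893 and 4454 ± 84.9 (SD, n = 3 each), a ratio of 1.77 (log2 change 0.81, SE 0.08, adjusted p = 6.32e-05). Its other, dimmer probe set rose as well, by 0.63. SLC2A3, the gene of the high-affinity transporter GLUT3, was dim, with signals of 83.1, 148.6 and 142.3 in Ecd siRNA cultures, against 182.1, 161.2 and 266.0 in control siRNA cultures. The groups did not overlap, but the change of -0.65 did not pass (95% interval -1.25 to -0.04, adjusted p = 0.128), and its 3 probe sets lay between -0.99 and -0.65. The 2 hexokinase genes, whose products trap glucose as glucose phosphate, did not pass either, although their groups did not overlap. HK1 had a log2 change of 0.17 (adjusted p = 0.103) and HK2 of 0.25 (adjusted p = 0.184), and HK2 averaged 3289 ± 651 in Ecd siRNA cultures and 2739 ± 92.9 in control siRNA cultures (SD, n = 3 each), with Ecd siRNA replicate 3 the highest array at 4037.5. Dimmer probe sets of HK2 lay the other way, at -0.26 with no overlap and at -0.17 with overlap, and did not pass. GPI, the isomerase that makes fructose phosphate, was at 0.18 (adjusted p = 0.0766). Among the 17 alternatives GPI passed only without Ecd siRNA replicate 3, at 0.24 (adjusted p = 0.0336).

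At the committed step of glycolysis the 3 phosphofructokinase genes did not pass, and 2 of the 3 PFKFB genes rose. PFKL was at 0.14 (adjusted p = 0.493), PFKM at -0.01 (adjusted p = 0.965) and PFKP at 0.14 (adjusted p = 0.174). PFKFB3 and PFKFB4 both encode bifunctional enzymes that set the level of the fructose bisphosphate activator and are known hypoxia-induced genes. PFKFB4 had signals of 2415.1, 2979.1 and 2453.9 in Ecd siRNA cultures, against 669.6, 596.5 and 664.4 in control siRNA cultures. That is a ratio of 4.07, with means of 2616 ± 315 and 643.5 ± 40.8 (SD, n = 3 each; log2 change 1.99, SE 0.10, adjusted p = 6.7e-07), the smallest adjusted p of the 33 members. Its second probe set gave 2.55, from signals of 590.3, 592.1 and 519.1 in Ecd siRNA cultures, against 146.1, 23.9 and 135.7 in control siRNA cultures. That probe set was dim in control cultures, and control siRNA replicate 2 lay under the filter signal of 84.6. PFKFB3, with 1 probe set, had 4817.5, 4351.2 and 5291.8 in Ecd siRNA cultures, against 2777.9, 2583.9 and 2594.6 in control siRNA cultures (ratio 1.82, log2 change 0.85, SE 0.08, adjusted p = 4.73e-05). In both genes every Ecd siRNA array exceeded every control array. PFKFB2, the isoform known from heart muscle, was at -0.08 (95% interval -0.43 to 0.26, adjusted p = 0.767).

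Among the aldolase and enolase genes ENO2 and ALDOC rose, and ALDOA, ENO1 and ENO3 did not pass. ENO2 encodes gamma enolase, the form found in neurons and neuroendocrine cells, which converts phosphoglycerate to phosphoenolpyruvate as the other enolases do. Its single probe set had signals of 586.7, 677.8 and 748.2 in Ecd siRNA cultures, against 70.3, 76.3 and 156.1 in control siRNA cultures. The Ecd siRNA mean of 670.9 ± 81.0 was 6.65 times the control mean of 100.9 ± 47.9 (SD, n = 3 each; log2 change 2.62, SE 0.25, adjusted p = 4.38e-05), the largest change of any member, and 2 of the 3 control arrays lay under the filter signal of 84.6. ENO1, the general enolase gene, averaged 18435 ± 958 in Ecd siRNA cultures and 17679 ± 657 in control siRNA cultures (SD, n = 3 each), with overlapping groups (0.06, 95% interval -0.07 to 0.19, adjusted p = 0.558). ENO3, the muscle form, was dim and at -0.14 (adjusted p = 0.769). ALDOC, the aldolase best known from brain, had 1551.0, 1462.5 and 1433.8 in Ecd siRNA cultures, against 744.2, 849.8 and 749.6 in control siRNA cultures (ratio 1.90, log2 change 0.91, SE 0.09, adjusted p = 6.41e-05), again with no overlap. ALDOA, the aldolase of most tissues, was at 0.04 (95% interval -0.10 to 0.18, adjusted p = 0.717).

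Because ENO2 is used as a neuronal and neuroendocrine marker, other markers of those cells were examined beside it. Of 12 such markers, all with a probe set and 10 above the filter, 0 rose and 0 fell. Their summed signal was 2086 to 2679.6 in Ecd siRNA cultures and 2090.1 to 2450.8 in control siRNA cultures, so the groups overlapped here too. Synaptophysin (SYP) averaged 82.7 ± 21.0 in Ecd siRNA cultures and 97.3 ± 43.8 in control siRNA cultures, and chromogranin A (CHGA) 138.6 ± 29.8 and 131.2 ± 32.2 (SD, n = 3 each). The 10 above the filter had log2 changes of -0.61 to 0.84, with 7 above 0 and 3 under it. Several, SYP among them, lay near the filter signal of 84.6, where small changes cannot be resolved. Of 12 skeletal muscle markers, 4 lay above the filter and none of the 4 passed. All 4 changes were above 0, with a median of 0.38. The sum of the muscle list was 1104.3 to 1373.6 in Ecd siRNA cultures and 963.2 to 1043.9 in control siRNA cultures, with no overlap. Of 12 fibroblast markers, 7 were above the filter, and FAP (1.03), FBLN1 (0.76) and COL1A1 (0.52) rose. The other 4 did not pass, with DCN at 0.11, COL1A2 at -0.17, TWIST2 at -0.26 and THY1 at -0.32, and the median of the 7 was 0.11. The sum of the fibroblast list was 10063 to 11446 in Ecd siRNA cultures and 6785.6 to 7228.2 in control siRNA cultures, also with no overlap. PDGFRA, PDGFRB, LUM, COL3A1 and DPT lay under the filter. The part of these cells in the changes of the glycolysis genes was not tested.

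The other steps between aldolase and pyruvate are each carried by 1 abundant gene. TPI1, which interconverts the triose phosphates, rose modestly, with 16030.8, 15629.7 and 14167.6 in Ecd siRNA cultures, against 12826.0, 12354.6 and 11714.0 in control siRNA cultures (log2 change 0.31, SE 0.07, adjusted p = 0.00697). This call rests on an _x_at probe set, a design that can bind related transcripts. It was lost when the gene's probe sets were averaged (0.16, adjusted p = 0.211) and without the intensity trend (adjusted p = 0.068). The gene's only probe set without _s or _x was at -0.007 (adjusted p = 0.988). That one was far dimmer, with means of 460.3 in Ecd siRNA cultures and 448.1 in control siRNA cultures. Its other bright probe set was at 0.18 with no overlap, and did not pass on its own (limma adjusted p = 0.0727). GAPDH, which makes the NADH of glycolysis and is often used as a loading control, had 20153.9, 18471.4 and 17219.2 in Ecd siRNA cultures, against 17918.6, 17979.1 and 16198.3 in control siRNA cultures. These groups overlapped (log2 change 0.10, 95% interval -0.06 to 0.26, adjusted p = 0.394), and the 3 Affymetrix control probe sets for GAPDH gave differences of 0.04 to 0.07. Its other 2 tested probe sets were at 0.12 and 0.26 and did not pass, although in the one at 0.26 the groups did not overlap. PGAM1, the mutase gene, was at 0.09 (adjusted p = 0.33). PKM, the pyruvate kinase gene, had 17457.3, 16183.3 and 15921.8 in Ecd siRNA cultures, against 16615.0, 16481.4 and 14882.1 in control siRNA cultures, also overlapping (0.05, 95% interval -0.10 to 0.19, adjusted p = 0.681). A far dimmer probe set of PKM was at 0.30 with no overlap, and did not pass.

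PGK1, the first ATP-yielding enzyme of glycolysis and a known hypoxia target, passed or missed the threshold according to the probe set used. The brightest one had 16067.2, 16579.1 and 15863.0 in Ecd siRNA cultures, against 15284.0, 15075.7 and 14445.6 in control siRNA cultures. No Ecd siRNA array was as low as a control array, yet the log2 change of 0.11 did not pass (95% interval -0.01 to 0.24, adjusted p = 0.176). With every probe set tested on its own, 4 of its 6 rose, by 0.32, 0.40, 0.50 and 0.99. The probe set without _s or _x that is brightest had 12050.5, 11519.7 and 12160.7 in Ecd siRNA cultures, against 8491.5, 8112.5 and 8718.7 in control siRNA cultures, and with it PGK1 passed at 0.50 (adjusted p = 0.000201). Averaged over its 6 probe sets it passed at 0.39 (adjusted p = 0.0109).

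**Figure D2:**
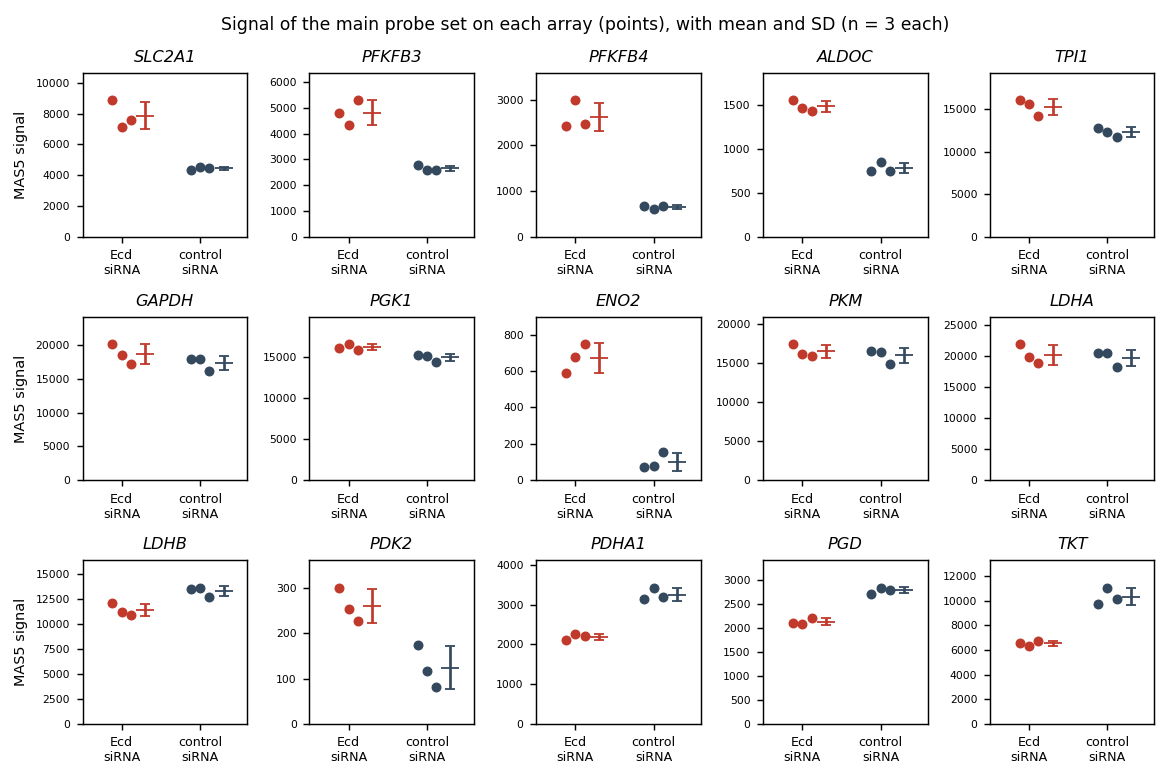
MAS5 signal (y axis, linear, from 0) of the main probe set of 15 genes on each array, 3 with Ecd siRNA (red, left) and 3 with control siRNA (dark, right), with mean and SD beside the points. PFKFB4, ENO2, SLC2A1, PFKFB3 and ALDOC lie higher with no overlap, PDHA1, PGD and TKT lie lower with no overlap, and GAPDH, PKM and LDHA overlap.

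At the end of the pathway LDHA, the lactate dehydrogenase gene that favours lactate formation, had 21947.2, 19789.4 and 18816.7 in Ecd siRNA cultures, against 20485.4, 20467.9 and 18174.4 in control siRNA cultures. The groups overlapped and the log2 change was 0.03 (95% interval -0.13 to 0.20, adjusted p = 0.805). LDHB, the heart-type subunit gene, fell slightly, with 12111.5, 11206.6 and 10937.7 in Ecd siRNA cultures, against 13496.3, 13676.8 and 12748.0 in control siRNA cultures (-0.22, SE 0.06, adjusted p = 0.0286). Its other probe set was at -0.29. The call for LDHB was the nearest to the threshold of the 11. It was lost without Ecd siRNA replicate 2 (adjusted p = 0.0943) or 3 (0.084), without control siRNA replicate 1 (0.111) or 2 (0.1), without the filter (0.0676), with arrays set to a common median (0.091) and without the intensity trend (0.141), while its direction was the same under all 17 alternatives.

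Inside mitochondria the pyruvate dehydrogenase complex turns pyruvate into acetyl-CoA, and the PDK kinases switch it off. PDHA1, the gene of the catalytic alpha subunit, fell, with 2110.5, 2252.2 and 2220.8 in Ecd siRNA cultures, against 3132.9, 3431.9 and 3183.9 in control siRNA cultures. The Ecd siRNA mean was 67.5% of the control mean (2194.5 ± 74.4 and 3250 ± 160, SD, n = 3 each; log2 change -0.56, SE 0.07, adjusted p = 0.000339). Another of its probe sets fell by 0.33 on the log2 scale, and the one without _s or _x was at -0.25 and did not pass (adjusted p = 0.24). Of the 4 kinase genes, PDK2 alone passed, with low signals of 301.6, 254.1 and 228.1 in Ecd siRNA cultures, against 174.4, 116.6 and 82.2 in control siRNA cultures (log2 change 1.03, SE 0.26, adjusted p = 0.0165). Its call was lost without Ecd siRNA replicate 1 (0.92, adjusted p = 0.0628) and when its 2 probe sets were averaged (0.36, adjusted p = 0.23), the other of which was at -0.31. PDK1, the kinase gene best known as a hypoxia target, was at 0.02 (95% interval -0.20 to 0.24, adjusted p = 0.905). PDK3 was at 0.16 (adjusted p = 0.665) in its main probe set, although 1 of its 5 probe sets rose by 0.80, with 619.2, 642.5 and 533.0 in Ecd siRNA cultures, against 366.0, 296.2 and 347.0 in control siRNA cultures. PDK4 was dim and at 0.13 (adjusted p = 0.829).

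Of the 5 pentose phosphate members TKT and PGD fell and the other 3 missed the threshold in either direction. The median change of all 5 was -0.19. TKT, the transketolase gene of the non-oxidative arm, had 6585.7, 6327.5 and 6736.8 in Ecd siRNA cultures, against 9717.2, 11091.0 and 10186.5 in control siRNA cultures. The Ecd siRNA mean of 6550 ± 207 was 63.4% of the control mean of 10332 ± 698 (SD, n = 3 each; log2 change -0.65, SE 0.07, adjusted p = 7.02e-05). All 3 of its probe sets fell, the dimmest at -1.004 on the log2 scale, which is also the value of the gene when probe sets without _s or _x are preferred. PGD, which makes NADPH and ribulose phosphate in the oxidative arm, had 2095.2, 2076.3 and 2209.6 in Ecd siRNA cultures, against 2712.2, 2836.8 and 2792.1 in control siRNA cultures (-0.38, SE 0.07, adjusted p = 0.00292). Averaged over its 3 probe sets, of which 1 lay under the filter, it was at -0.18 (adjusted p = 0.714). PGLS, the lactonase gene just before it, lay the other way at 0.28, with an adjusted p of 0.0558 just outside the threshold. It passed without Ecd siRNA replicate 1 (0.37, adjusted p = 0.0103), with array weights (adjusted p = 0.0311), with the stricter filter (0.0441) and with the replicate number as a block (0.0483), and was at -0.02 averaged over its 4 probe sets. RPIA, the ribose phosphate isomerase gene, was at -0.14 (adjusted p = 0.428). TALDO1, the transaldolase gene, was at -0.19 (adjusted p = 0.199) and passed without Ecd siRNA replicate 1, at -0.30 (adjusted p = 0.0179).

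Isoforms of a step were compared directly, as the log2 ratio of their main probe sets within each array. This shows whether they changed unequally and says nothing of which is more abundant. Of 19 isoform pairs, 10 had ratios that did not overlap between the groups. In each of these the 2-sided exact permutation test gave p = 0.1, the smallest that 3 against 3 arrays allow. After adjustment over the 19 pairs it was 0.19, so no pair could pass a threshold of 0.05. Several of the 10 pairs share a gene, so they are not separate observations. Signals of 36.4% of all single tested genes did not overlap, but no such share was computed for other gene pairs. The ENO2 over ENO1 ratio was -5.02, -4.70 and -4.54 in Ecd siRNA arrays, against -7.71, -7.61 and -6.62 in control siRNA arrays, a difference of 2.56. It was 1.90 with probe sets without _s or _x, where that of ENO1 was dim. Its means were 153.1 in Ecd siRNA cultures and 93.4 in control siRNA cultures. For ALDOC over ALDOA the ratios were -3.43, -3.56 and -3.43 in Ecd siRNA arrays, against -4.42, -4.27 and -4.35 in control siRNA arrays, a difference of 0.87. PFKFB4 shifted upward against both relatives, by 1.14 over PFKFB3 and by 2.08 over PFKFB2, and PFKFB2 shifted by -0.94 against PFKFB3. LDHB over LDHA was -0.86, -0.82 and -0.78 in Ecd siRNA arrays, against -0.60, -0.58 and -0.51 in control siRNA arrays, a difference of -0.25. The other non-overlapping pairs were ENO2 over ENO3 (2.76), SLC2A3 over SLC2A1 (-1.46), PDK1 over PDK2 (-1.002) and PDK2 over PDK3 (0.87). Averaged over each gene's probe sets, these kinase ratios differed by -0.34 and 0.08, PFKFB4 over PFKFB3 by 1.42 and PFKFB4 over PFKFB2 by 2.39. A pseudocount of 64 gave 2.29 for ENO2 over ENO3, and probe sets without _s or _x gave 3.58. In the latter the ENO3 probe set lay under the filter. Ratios overlapped for HK2 over HK1 (0.08, and -0.23 averaged over probe sets) and for all 3 pairs of phosphofructokinase genes (-0.14 to 0.15).

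**Figure D3:**
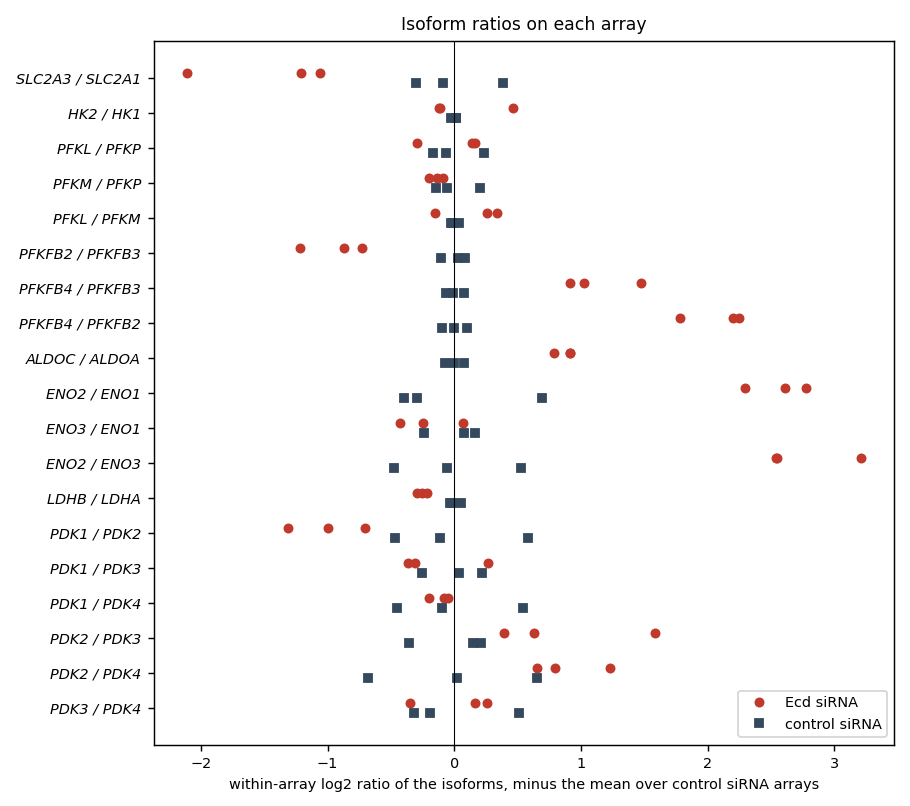
Within-array log2 ratios of 19 isoform pairs (x axis, each pair shifted so that its mean over control siRNA arrays is 0), with Ecd siRNA arrays as red circles above control siRNA arrays as dark squares. The groups do not overlap in 10 pairs, of which several share a gene. The widest gaps are for ENO2 and PFKFB4 against their relatives, and groups overlap for the hexokinase and phosphofructokinase pairs.

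Each probe set of the members was also taken on its own. Of the 82 probe sets, 3 were Affymetrix controls and 6 lay under the filter, and 73 were tested one by one among 32772 probe sets. Of these, 14 rose and 8 fell, which is to be read against 7.27% and 7.60% of all tested probe sets. The 14 belonged to 9 genes, the 7 that rose above and PGK1 and PDK3, and the 8 to LDHB, PDHA1, PGD and TKT. No gene had 1 probe set that rose and another that fell. Of the 21 members with several tested probe sets, 13 had all of them on 1 side of 0 and 8 had them on both sides. Probe sets of 1 gene share their RNA, so they are not independent measurements.

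**Figure D4:**
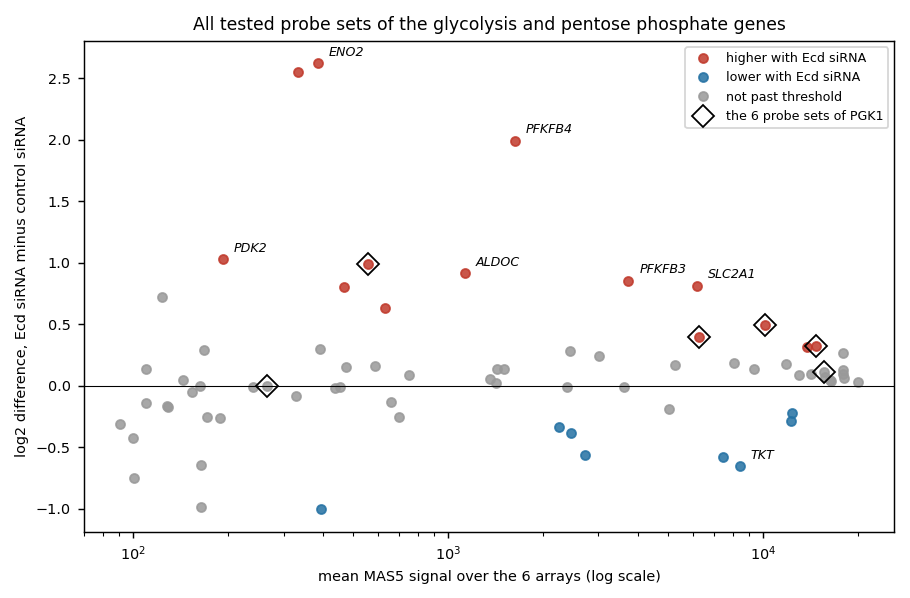
Log2 difference between Ecd siRNA and control siRNA cultures (y axis) against mean MAS5 signal over the 6 arrays (x axis, log scale) for the 73 tested probe sets of the members, coloured by call. The 14 that rose and 8 that fell include 4 of the 6 probe sets of PGK1, all 6 of which carry diamonds. The brightest of them is at 0.11.

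Promoter sequences are shown for 4 of the 5 genes that rose under all 17 alternatives, for TKT, the 1 member that fell under all of them, and for ENO1, the enolase gene that did not pass. They are the 250 bases before the annotated start, from RefSeq on GRCh38.p14, written 5′ to 3′ in the direction of the gene. Capitals mark ACGTG or GCGTG on either strand, the core letters that hypoxia-inducible factors (HIF) bind, with overlapping matches counted once. ENO2 lies at chr12:6914330-6914579 on the plus strand, PFKFB4 at chr3:48556804-48557053 on the minus strand, ALDOC at chr17:28576896-28577145 on the minus strand, SLC2A1 at chr1:42958869-42959118 on the minus strand, TKT at chr3:53256023-53256272 on the minus strand and ENO1 at chr1:8878687-8878936 on the minus strand.
ENO2: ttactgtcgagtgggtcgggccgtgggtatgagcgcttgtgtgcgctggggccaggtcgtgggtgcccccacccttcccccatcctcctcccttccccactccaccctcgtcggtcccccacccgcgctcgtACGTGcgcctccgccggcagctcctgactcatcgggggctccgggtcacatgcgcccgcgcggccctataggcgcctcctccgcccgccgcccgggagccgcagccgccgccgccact
PFKFB4: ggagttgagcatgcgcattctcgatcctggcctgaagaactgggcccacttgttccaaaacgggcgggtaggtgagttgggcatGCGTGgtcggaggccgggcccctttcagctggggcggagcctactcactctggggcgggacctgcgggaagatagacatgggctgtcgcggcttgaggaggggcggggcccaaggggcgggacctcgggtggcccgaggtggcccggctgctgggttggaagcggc
ALDOC: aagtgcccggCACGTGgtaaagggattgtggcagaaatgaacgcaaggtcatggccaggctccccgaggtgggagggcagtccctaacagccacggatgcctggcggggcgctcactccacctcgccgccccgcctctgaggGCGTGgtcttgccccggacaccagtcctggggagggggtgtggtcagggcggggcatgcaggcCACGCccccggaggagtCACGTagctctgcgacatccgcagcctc
SLC2A1: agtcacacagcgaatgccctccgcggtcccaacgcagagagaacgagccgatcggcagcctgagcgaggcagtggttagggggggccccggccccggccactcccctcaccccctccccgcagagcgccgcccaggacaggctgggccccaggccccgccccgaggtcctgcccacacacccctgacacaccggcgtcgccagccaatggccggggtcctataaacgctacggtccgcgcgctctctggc
TKT: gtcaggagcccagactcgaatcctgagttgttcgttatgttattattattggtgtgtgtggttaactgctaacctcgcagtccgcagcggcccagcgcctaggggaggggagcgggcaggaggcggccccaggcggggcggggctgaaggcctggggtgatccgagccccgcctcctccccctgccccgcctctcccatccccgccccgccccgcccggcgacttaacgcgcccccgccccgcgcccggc
ENO1: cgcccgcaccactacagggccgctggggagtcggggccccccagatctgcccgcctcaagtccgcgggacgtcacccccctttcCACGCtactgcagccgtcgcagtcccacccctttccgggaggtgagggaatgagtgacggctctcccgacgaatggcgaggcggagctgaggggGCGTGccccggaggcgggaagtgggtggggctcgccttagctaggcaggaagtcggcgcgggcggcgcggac
The window of ENO2 held 1 core, 118 bases before the start, that of PFKFB4 held 1, that of ALDOC held 4 and that of ENO1 held 2. SLC2A1 and TKT held none in this window. Of the 33 tested members, 31 had a window in the RefSeq table, with 56 windows in all. The core stood in 7 of 11 windows of the genes that rose (63.6%), in 2 of 4 of the genes that fell and in 20 of 41 of the others (48.8%), against 43.2% of all 35116 promoter windows. The core is short and rich in G and C, and these windows held more of both than the whole set. The median was 68.2% G and C in the members' windows, against 58.0% in all windows. In the shares of windows with a core, windows of 1 gene count separately, though they are not independent. Among genes that did not pass, HK1 and PFKM each had 7 windows, of which 1 held a core, and ALDOA had 3, all with a core. Shares by gene were not computed.

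Genes of the same pathways outside the 35 were looked at through a list of 51. Of these, 45 had a probe set and 33 passed the filter, and 4 rose and 7 fell, with a median log2 change of -0.01. Their 12.1% of rises and 21.2% of falls stand beside the 10.1% and 11.0% given above for all tested genes. Among the rises were BPGM, the bisphosphoglycerate mutase gene (0.88, adjusted p = 0.000345), and PGM1, the phosphoglucomutase gene that links glycogen to glycolysis (0.46, adjusted p = 0.00111). The others were the SLC2A family genes SLC2A12 (0.78, adjusted p = 0.00289) and SLC2A13 (0.53, adjusted p = 0.0119). The 4 falls with the smallest adjusted p were GPD2, PDP1, PRPS2 and PRPS1. GPD2, the mitochondrial glycerol phosphate dehydrogenase of an NADH shuttle, had 1260.7, 1655.4 and 1335.1 in Ecd siRNA cultures, against 2746.3, 2728.7 and 3139.1 in control siRNA cultures (-1.02, adjusted p = 9.87e-05). PDP1, the phosphatase that switches pyruvate dehydrogenase back on, was at -0.79 (adjusted p = 0.000251). PRPS2 (-0.64, adjusted p = 0.000872) and PRPS1 (-0.62, adjusted p = 0.00108), which turn ribose phosphate into the precursor of nucleotides, fell too. Averaged over their probe sets, SLC2A13 (0.53, adjusted p = 0.121) and PRPS2 (-0.35, adjusted p = 0.188) did not pass.

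Glycolysis holds many textbook HIF targets. Among the members some of these rose, such as SLC2A1 and PFKFB3, and others did not pass, such as LDHA (0.03), PDK1 (0.02), ALDOA (0.04) and ENO1 (0.06). A list of HIF targets outside glycolysis was set beside the members. Of 22 listed, 21 had a probe set and were tested, and 16 rose, 0 fell and 5 did not pass, where 10.1% of all tested genes rose. Their median log2 change was 0.58. LOX, a collagen cross-linking enzyme gene, was at 1.38, MXI1, a MYC antagonist gene, at 0.75, P4HA2, a collagen prolyl hydroxylase gene, at 0.60, and BNIP3L, a mitophagy receptor gene, at 0.66, with limma adjusted p of 3.57e-06 for LOX and up to 9.04e-05 for BNIP3L. P4HA2 did not pass averaged over its probe sets (0.42, adjusted p = 0.168). The 5 that did not pass were DDIT4, ERO1A, VEGFA, STC2 and ANGPTL4, named here after their values were seen. No gene list was tested as a set.

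**Figure D5:**
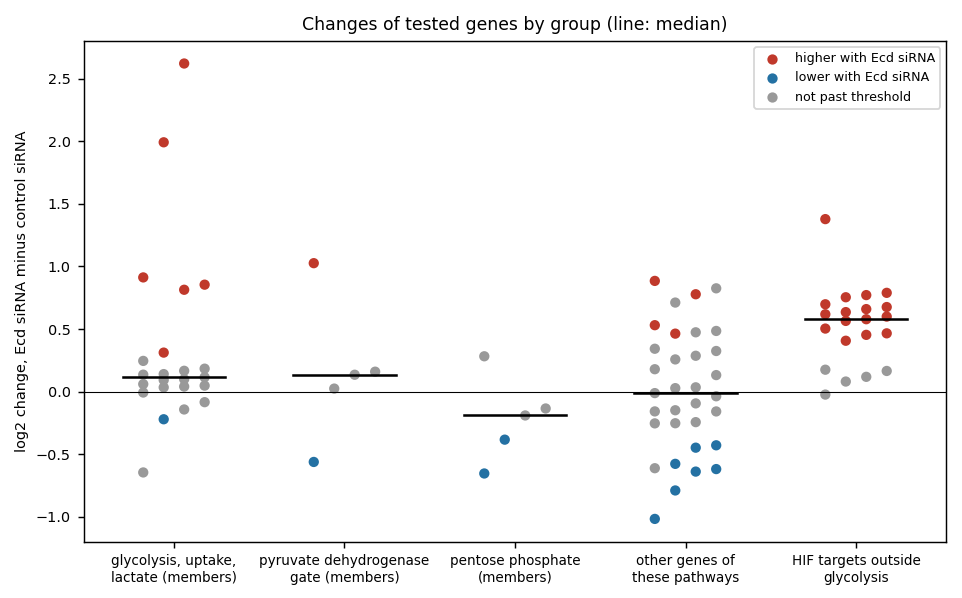
Log2 change, Ecd siRNA minus control siRNA (y axis), of each tested gene in 5 groups: 23 members of glycolysis, glucose uptake and lactate formation, 5 of the pyruvate dehydrogenase gate, 5 of the pentose phosphate pathway, 33 other genes of these pathways and 21 HIF targets outside glycolysis. Colours give the call and black lines the medians, which are 0.11, 0.13, -0.19, -0.01 and 0.58 from left to right.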

How the data were processed

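Values were deposited by the authors as 1 intensity per probe set on each of 6 Affymetrix arrays, on a linear scale. The submitters' processing notes name MAS5 as the tool. Its version and its scaling target are not given in the sources used here. Means of the values between percentiles 2 and 98 were nearly equal on all arrays, so a shift common to the whole array cannot be seen. Probe sets were named from GEO's platform annotation: 41091 had 1 symbol, 1801 several, 11721 none, and 62 were Affymetrix controls, left out of the tests. For each of 19775 genes the brightest single-symbol probe set was taken, and the 14603 genes in the upper 60% of all probe sets (mean log2(signal + 16), a signal of 84.6) were tested with limma 3.58.1 (lmFit, eBayes with intensity trend) under R 4.3.3, without covariates, with Benjamini-Hochberg adjustment over all tested genes or, for single probe sets, over all tested probe sets. Values in every array are given for members past the threshold and for GAPDH, LDHA, PGK1 and PKM, and up to 4 other genes per list and direction by smallest adjusted p. Members, lists and tests were chosen with earlier results of these data known. The p-values reflect only the spread among these 6 cultures, and the number of arrays limits precision.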

Additional observations from a re-analysis of the deposited data

How the results depend on the processing

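Results were recomputed under 17 alternatives, which gave 556 member values. Of these, 522 kept their direction and their side of the threshold. With the sign kept, 13 lost a call and 8 gained one, and another 13 changed sign. SLC2A1 (0.63 to 0.88), PFKFB3 (0.78 to 0.93), PFKFB4 (1.90 to 2.27), ALDOC (0.87 to 0.97), ENO2 (2.19 to 2.94) and TKT (-1.004 to -0.60) passed under all 17. PFKFB3, ALDOC and ENO2 have 1 probe set each. Averaging probe sets or preferring those without _s or _x could not change their values. Of the members called, TPI1 was the 1 that changed sign, at -0.0071 with probe sets without _s or _x, where it also lost its call. Averaging a gene's probe sets put HK2 at -0.063 and PGLS at -0.022, and quantile normalization put LDHA at -0.018. Leaving out 1 array gave ranges that include 0 for PFKM (-0.043 to 0.043), PFKFB2 (-0.19 to 0.05), PKM (-0.0035 to 0.076), LDHA (-0.028 to 0.083), PDK1 (-0.047 to 0.084) and PDK4 (-0.21 to 0.37). Member probe sets that fell numbered 5 with a common array median, and 9 rose and 5 fell without the intensity trend. Leaving out 1 array, 5 to 9 fell, with 5 without Ecd siRNA replicate 3 or without control siRNA replicate 3. The members' median change was 0.053 after quantile normalization and 0.060 averaged over probe sets. With the replicate number as a block (replicate block), 1582 genes rose and 1695 fell, against 1468 and 1607 without it, and 8 members rose and 4 fell. PGLS was the member gained. The numbers were not taken to pair the cultures. Deviations from the group mean correlated at -0.009, 0.079 and 0.15 for same-numbered arrays. The other combinations gave -0.13 to 0.057, and these values do not settle whether the numbers mark pairs. With 3 arrays a group, small changes of dim transcripts cannot be resolved. The causes of these differences were not tested.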

Other observations

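Of the 9 members with a mean signal of 10000 or more over the 6 arrays, TPI1 rose and LDHB fell and all 9 changes lay between -0.22 and 0.31 on the log2 scale, while the 24 dimmer ones ranged from -0.65 to 2.62 and held 6 rises and 3 falls. That is 22.2% of the brighter members called, against 16.5% of all tested genes at that level, and 37.5% of the dimmer ones, against 21.1% of all dimmer genes. All tested genes had a median size of change of 0.085 in 267 genes at or above that signal and 0.21 in the 14336 under it. The highest signal was 26276 to 27987 on the Ecd siRNA arrays and 24573 to 27339 on the control siRNA arrays, and how near the brightest probe sets were to saturation was not tested. Of the 6 probe sets of PGK1, the 3 with a mean at or above that signal were at 0.11, 0.32 and 0.50.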
